A study of Mus musculus with 14 samples.

Results

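The 8 genes described here are markers of the germ layers: the transcription factors Gata6, Sox17, Foxa2, T, Eomes and Pax6, the receptor Pdgfra and the membrane ligand Efnb2. They were taken by name from the 52459 genes of the count tables. E14Tg2a cells, a mouse embryonic stem cell (mESC) line grown with serum and LIF on gelatin, were compared as the wild type (WT) and as a METTL14 R255K knock-in line, in which an arginine of METTL14 is replaced by lysine. The labels give 14 samples. Of these, 8 are MeRIP-seq libraries of untreated cells, with 2 inputs and 2 pull-downs with an m6A antibody (Abcam, ab151230) for each genotype. The other 6 are RNA-seq libraries of cells kept in actinomycin D at 5 μg/ml for 0, 4 or 8 h, with 1 library per genotype and time. The knock-in was made with CRISPR-Cas9 and grown from single colonies, and the number of clones behind these libraries is not given in the sources used here.

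Germ layers are the tissues that an embryo sets aside at gastrulation, and each is recognised by the regulators it switches on. GATA6, SOX17 and FOXA2 are transcription factors of endoderm, and GATA6, SOX17 and the receptor PDGFRA also mark primitive endoderm, the lineage that splits from the pluripotent cells before gastrulation. T (Brachyury) and EOMES are T-box factors of the primitive streak and early mesoderm and endoderm, PAX6 directs neural and eye development, and EFNB2 is a ligand of Eph receptors at the cell surface. In pluripotent cells these genes are kept low. METTL14 and METTL3 form the enzyme that writes N6-methyladenosine (m6A) on RNA, a mark that can speed decay of the transcript. Actinomycin D stops transcription, so that the RNA left after it reports on decay.

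The m6A peaks on the members are shown first, because the pull-down and the time course are read on the same transcripts. A peak is a region where the pull-down exceeded the input, and the deposited lists score it by an enrichment relative to local background and by a −log10 q. There is 1 list per genotype, with no value per replicate and unknown depth. Transcript positions are those of the GENCODE vM21 transcript with the longest coding sequence, on mm10. All 8 members had at least 1 WT peak on an exon, with 12 peaks in all. For comparison, 45.7% of the 6829 genes whose 0 h level in WT lay within the range of the members had an exonic WT peak. In R255K cells 7 peaks were listed on 4 members, Sox17, Pdgfra, Eomes and Efnb2.

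The letters around the summits of 8 of the 12 WT peaks follow, chosen to show peaks that had no R255K counterpart beside peaks that had one. The Gata6 and Foxa2 peaks, also without a counterpart, are not shown, so the choice does not describe all peaks of that kind. The letters were read from the mm10 genome, 5′ to 3′ on the strand of the gene. Capitals mark GGAC, the 4 letters in which METTL3 and METTL14 most often methylate the A. Runs of 101 bases lie in coding sequence at the summit, and runs of 24 bases are centred on the GGAC nearest to it. The T run starts at the start codon (chr17:8434531-8434631, plus strand). The 2 Pax6 sites lie in the 5′ UTR (chr2:105676576-105676599) and in the last exon (chr2:105696499-105696522), both on the plus strand. These 3 sequences are from WT peaks that no R255K peak overlapped. The other 5 are from peaks listed in both genotypes: Sox17 (chr1:4492176-4492276, minus strand), Pdgfra (3′ UTR, chr5:75195333-75195356, plus strand), Eomes (3′ UTR, chr9:118485207-118485230, plus strand) and Efnb2, whose last coding bases (chr8:8620591-8620691) and first coding bases (chr8:8660514-8660614) are on the minus strand.
T, start codon: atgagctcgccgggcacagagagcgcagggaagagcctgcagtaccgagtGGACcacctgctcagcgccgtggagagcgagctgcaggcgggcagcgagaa
Pax6, 5′ UTR: aggccacgagGGACccagagcgag
Pax6, last exon: gcccgggaatGGACtagaaccaag
Sox17, coding sequence: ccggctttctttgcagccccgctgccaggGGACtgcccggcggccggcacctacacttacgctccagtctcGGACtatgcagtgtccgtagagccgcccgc
Pdgfra, 3′ UTR: ggaaatggatGGACaagagagtga
Eomes, 3′ UTR: agtgactggaGGACgcaggagtgt
Efnb2, end of the coding sequence: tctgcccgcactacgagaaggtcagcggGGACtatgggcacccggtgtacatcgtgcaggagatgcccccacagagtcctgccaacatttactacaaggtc
Efnb2, start of the coding sequence: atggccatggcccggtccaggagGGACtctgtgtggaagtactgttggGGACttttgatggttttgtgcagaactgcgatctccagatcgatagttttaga

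Of the 12 WT peaks on members, 5 had no overlapping R255K peak, a share of 41.7% (exact 95% interval 15.2 to 72.3). Over all 13870 exonic WT peaks the share without an overlap was 47.9%, so the members' share was near the background. By gene, 4 of the 8 members (Gata6, Foxa2, T and Pax6) had no WT peak that was overlapped in R255K, against 41.3% of the 3119 genes of the same level range. The 4 genes that kept no peak include members of all 3 germ layers.

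The Pax6 peak in the last exon had the highest enrichment of the 5, at 12.6-fold with a −log10 q of 30.9. Its summit lay 150 bases past the last sense base (the base before the stop codon) of the chosen transcript, in sequence that is coding in another isoform. The other Pax6 peak, in the 5′ UTR, was weak, with 4.49-fold enrichment and a −log10 q of 3.36. The Foxa2 peak reached from the end of the coding sequence into the 3′ UTR, with its summit 45 bases before the last sense base and an enrichment of 5.39-fold (−log10 q 4.68). The T peak lay over the start of the transcript, with its summit in the first codons, at 4.27-fold (−log10 q 8.78). The Gata6 peak (chr18:11084582-11084962) was in the 3′ UTR, 234 bases past the last sense base, at 7.18-fold (−log10 q 10.4). Of these 5 peaks, 4 were thus below the median −log10 q of exonic WT peaks, which was 24.8. Below that median 75.4% of all exonic WT peaks had no R255K overlap (members 4 of 8), and at or above it 20.3% had none (members 1 of 4, the Pax6 peak).

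The 7 peaks found in both genotypes differed in how the enrichment compared. The Sox17 peak in the coding sequence had 13.1-fold enrichment in WT and 20.1-fold in R255K. The Pdgfra peak, 259 bases past the last sense base, had 11.2-fold and 14.5-fold. In Eomes the peak over exon 1 had 4.40-fold and 4.15-fold, and the one 146 bases past the last sense base 15.1-fold and 13.3-fold. These peaks thus kept most of their enrichment or had more of it in the R255K list. Efnb2 had 3 peaks that behaved differently along 1 transcript. At the end of its coding sequence, enrichment was 13.0-fold in WT and 12.6-fold in R255K. In exon 2 it was 3.36-fold and 4.35-fold, and around the start codon 10.7-fold and 3.29-fold. The R255K over WT ratio of that last peak was 0.308, and only 1.66% of the 7231 exonic peaks found in both lists had a lower one. The median ratio of those 7231 peaks was 0.792 (quartiles 0.593 and 1.05), and 29.0% were above 1, as were 3 of the 7 on members. Fold enrichments carry no error here, because the lists hold 1 value per genotype.

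**Figure D1:**
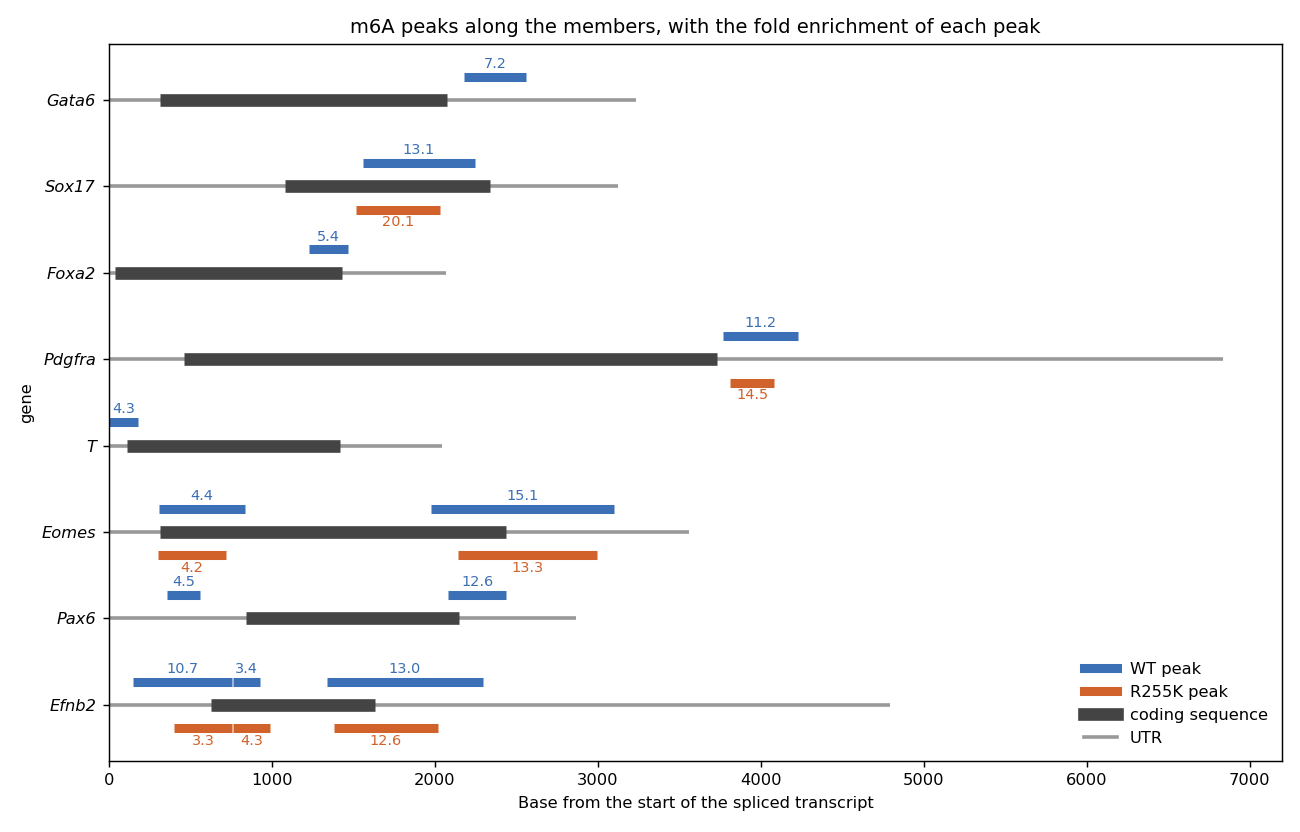
WT (blue) and R255K (orange) peaks drawn along the spliced transcript of each member, in bases from its start, with coding sequence as thick and UTRs as thin grey lines and the fold enrichment printed at each peak. Gata6, Foxa2, T and Pax6 have WT peaks only, and the Efnb2 peak around the start codon goes from 10.7 to 3.3.

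The letters GGAC were looked for in the sense strand, up to 100 bases to either side of each summit (201 bases in all). They were present at 11 of the 12 WT peaks on members and at 7 of 7 R255K peaks, against 79.0% of 13095 and 82.4% of 8340 exonic peaks, those whose genes all lie on 1 strand. The Gata6 peak was the member peak without the 4 letters in its window. At the Foxa2 peak the 101 coding bases at the summit held 0 GGAC. The A of the nearest one was 89 bases from the summit, within the window but past the edge of the peak. Among 3 variants of these letters in the same windows, AGAC was at 6 of the 12 WT member peaks (68.8% of those 13095 WT peaks), GAAC at 6 (61.0%) and AAAC at 4 (51.3%). A match describes the letters only.

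The 6 actinomycin D libraries held between 13812160 and 18813640 counted reads. Mettl14, the mutated gene, was counted 681, 376 and 232 times at 0, 4 and 8 h in WT libraries and 299, 280 and 209 times in R255K libraries, a ratio of 0.489 in CPM (counts scaled by the summed counts of the library) at 0 h (95% interval 0.426 to 0.561). Counts do not show the base change itself. All intervals on counts and ratios are exact Poisson or binomial intervals at 95% and cover counting error only. With 1 library per genotype and time there is no spread between replicates and no test, so every comparison is between 2 libraries and not between the genotypes. "Higher" and "lower" are used where that counting interval lies on 1 side of no change. Pluripotency markers were present in every library, with a summed level of 6400 CPM in WT and 4960 CPM in R255K at 0 h.

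Per length, the members were low in the WT 0 h library. Efnb2 was the highest at 4.36 FPKM (CPM per kilobase of exon), above 85.0% of all genes. Gata6 (1.40 FPKM) and Pax6 (1.20 FPKM) followed, and did not differ from each other beyond counting error. Pdgfra (0.607) and Eomes (0.552) came next, and also overlapped. Sox17 (0.325), Foxa2 (0.291) and T (0.273 FPKM) were lowest, with neighbouring intervals that overlapped. In the R255K 0 h library Efnb2 was again highest at 9.90 FPKM, while Foxa2 (1.67), Eomes (1.38), T (1.24), Pax6 (1.13) and Gata6 (1.12 FPKM) formed a run in which no neighbours differed beyond counting error. Sox17 (0.630) and Pdgfra (0.376 FPKM) were lowest there. Foxa2 and T thus moved from the bottom of the order in WT to among its 4 highest in R255K.

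At 0 h, 5 of the 8 members were higher in the R255K library, 1 was lower and 2 were not called. Over the 16201 genes with at least 10 counts in the 2 libraries, 38.8% were higher and 30.1% lower by the same rule, and the median log2 ratio was 0.09. Among the 4400 genes with 20 to 200 counts in total, a range that holds 6 of the members, 37.8% were higher and 18.1% lower. The members' median log2 ratio was 1.07. Relative to Gapdh, which was at 0.371 of its WT level (0.326 to 0.420) in R255K, all 8 members were higher, as were 84.9% of all genes (2.18% lower). In cultures of this kind, more cells that express a marker and more RNA per cell cannot be told apart.

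The endoderm members did not move as 1 group. Foxa2 had 12 counts in WT and 62 in R255K, 5.76-fold higher (3.07 to 11.7). Sox17 had 27 and 47 counts, 1.94-fold higher (1.18 to 3.24). Gata6 had 78 and 56 counts, a ratio of 0.800 (0.557 to 1.14) that was not called. Pdgfra, the receptor for platelet-derived growth factors, had 106 and 59 counts and was the member that was lower, at 0.620 of the WT level (0.443 to 0.861). The 0 h ratios varied with the GC content of genes. Once that trend was removed, the Sox17 interval included no change (1.61, 0.979 to 2.68) and the Gata6 interval fell below it (0.629, 0.438 to 0.898).

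Both T-box factors of the primitive streak were higher. T had 11 counts in WT and 45 in R255K, a 4.56-fold difference (2.32 to 9.77). Eomes had 40 and 90 counts, a 2.51-fold difference (1.71 to 3.74). The WT counts behind the T ratio are few, which sets the width of its interval.

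The members expressed in ectoderm differed from each other. Efnb2, with the most counts of the 8, had 521 in WT and 1062 in R255K and was 2.27-fold higher (2.04 to 2.53). Pax6 had 244 and 206 counts, a ratio of 0.941 (0.778 to 1.14) that was not called. The Pax6 interval thus included no change, and that of Efnb2 did not.

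**Figure D2:**
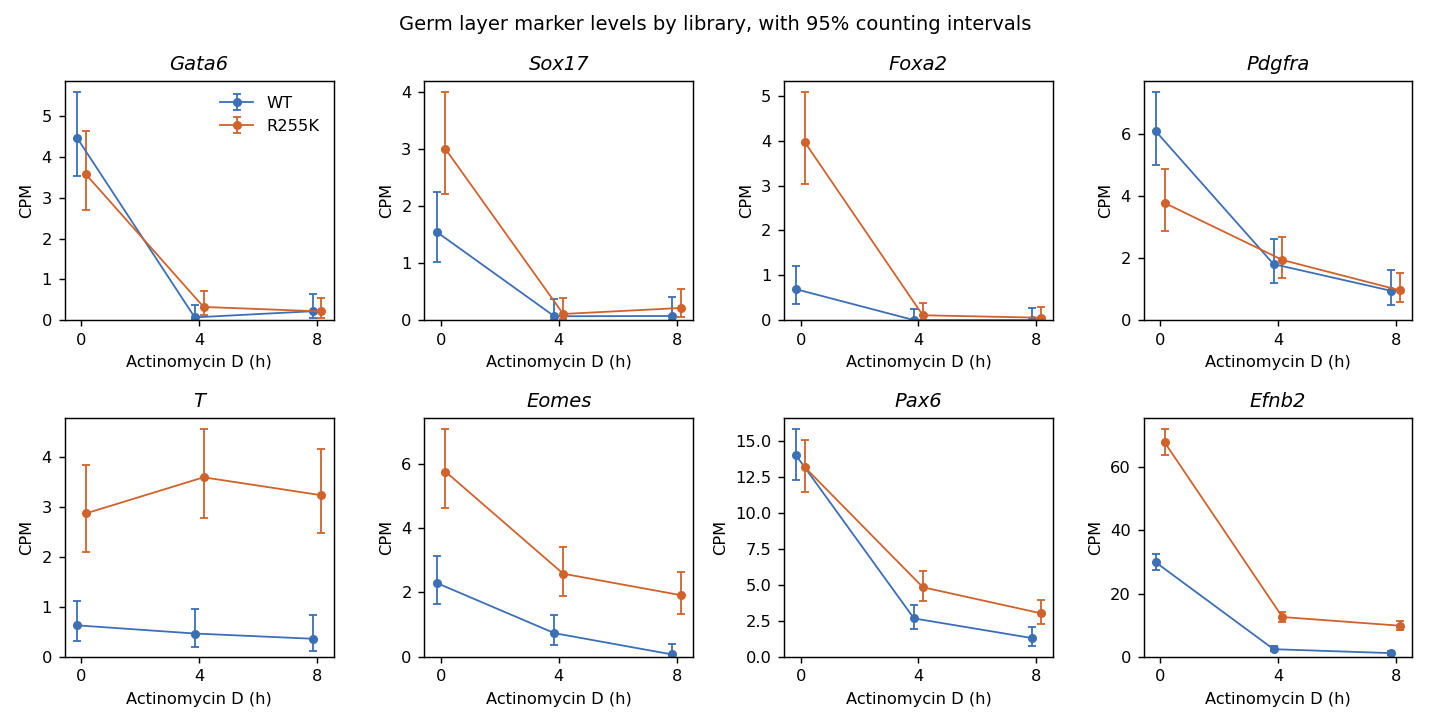
CPM of each member in the 6 libraries against hours in actinomycin D, with WT in blue, R255K in orange and bars for the 95% Poisson interval of each count. Efnb2, Eomes and T lie higher in R255K at all 3 times, while Pax6 starts level and Pdgfra starts lower. T at 4 and 8 h and Eomes at 8 h had under 10 counts in WT, so they support no direction there.

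After actinomycin D the counts of the members became small, and 3 of them (Gata6, Sox17 and Foxa2) fell under the minimum of 10 counts over both libraries at 4 and at 8 h. Of the other 5, T, Eomes, Pax6 and Efnb2 were higher in R255K at both times and Pdgfra was not called. T at both times and Eomes at 8 h were under that minimum in WT and passed it through the R255K library alone, so their calls are no support for a direction. Over all genes 48.9% of 15699 were higher and 20.9% lower at 4 h, and 56.0% of 15208 higher and 19.1% lower at 8 h. The median log2 ratio of all genes had by then moved from 0.09 to 0.33 at 4 h and 0.61 at 8 h, and the members' ratios have to be read against that shift.

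For T, 7 WT reads were counted at 4 h and 5 at 8 h, beside 67 and 61 from R255K cells. The ratios were 7.71 (3.54 to 19.9) and 8.96 (3.64 to 28.6). For Eomes the WT libraries gave 11 and 1 counts and the R255K libraries 48 and 36, for ratios of 3.52 (1.80 to 7.51) and 26.4 (4.45 to 1073), the last against a single WT count. Efnb2 stood at 36 and 16 WT counts beside 234 and 185 from R255K cells, or 5.24 (3.68 to 7.66) and 8.49 (5.09 to 15.2). The Efnb2 intervals at 4 and 8 h lay wholly above the one at 0 h.

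Pax6 stood at 40 and 18 WT counts beside 90 and 57 from R255K cells at 4 and 8 h, for ratios of 1.81 (1.24 to 2.70) and 2.32 (1.35 to 4.20). Pdgfra gave 27 and 13 WT counts beside 36 and 18, and the ratios of 1.07 (0.634 to 1.84) and 1.02 (0.471 to 2.26) no longer showed the lower level seen at 0 h. When DESeq2 size factors took the place of summed counts, the median log2 ratio at 8 h was 0.01. T (5.89, 2.39 to 18.8), Eomes (17.4, 2.93 to 706) and Efnb2 (5.59, 3.35 to 9.98) were still higher, and Pax6 was not called (1.53, 0.887 to 2.76). The T and Eomes values rest on 5 and 1 WT counts and are no support for a direction. Relative to Gapdh, at 4 h Eomes (1.34, 0.687 to 2.87) and Pax6 (0.692, 0.472 to 1.03) were not called and Pdgfra was lower (0.410, 0.242 to 0.702), as were 66.7% of all genes.

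**Figure D3:**
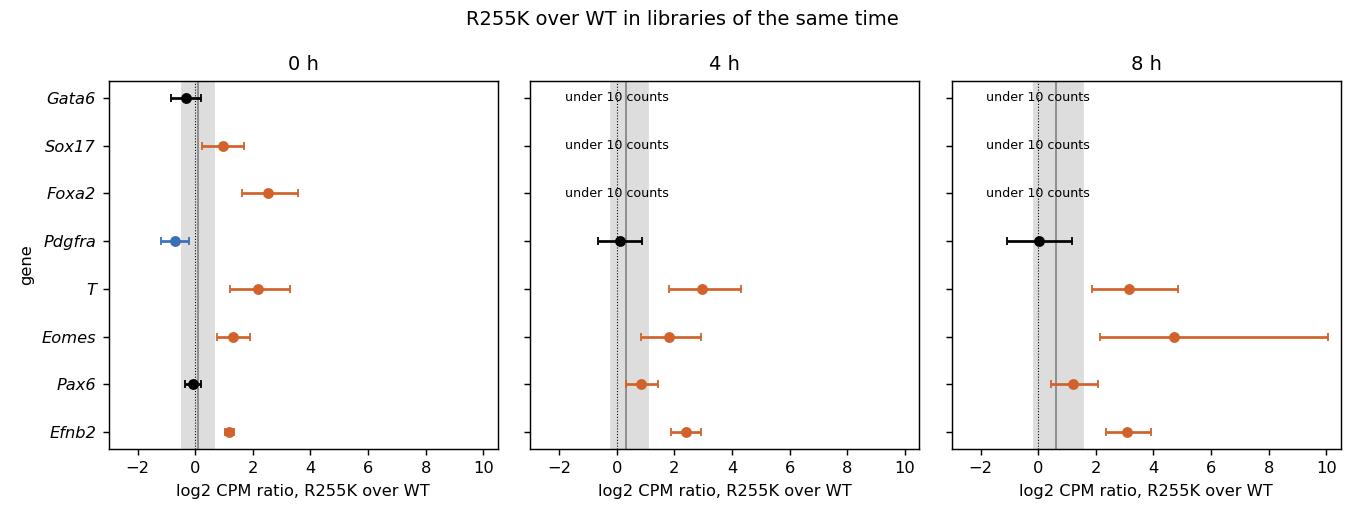
Log2 CPM ratio of R255K over WT for each member at 0, 4 and 8 h with its 95% counting interval, in orange where higher, blue where lower and black where not called, over the median (grey line) and quartiles (grey band) of all genes. The points of T, Eomes and Efnb2 lie above the band at each time, and the Eomes interval at 8 h is wide because WT had 1 count. T at 4 and 8 h and Eomes at 8 h had under 10 counts in WT, so their points there support no direction.

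The share of RNA that remained was computed within each genotype from CPM. Most members decayed fast. At 4 h the median over the 8 was 13.6% of the 0 h level in WT and 27.6% in R255K. Over all genes past a mean of 1 FPKM at 0 h the median was 88.2% and 96.4%. The members were not filtered in this way, and 3 of the 8 passed that limit. The low counts of Gata6, Sox17 and Foxa2 enter the members' median. CPM is relative to the RNA that is left, so a stable transcript can exceed 100%.

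Gata6 and Sox17 were nearly gone at 4 h in both genotypes. Gata6 was down to 1 and 3 counts at 4 and 8 h in the WT libraries and to 6 and 4 in those of R255K, so that 1.49% (0.0373 to 8.56) and 9.01% (3.17 to 20.9) remained at 4 h. Sox17 was down to 1 count at each time in WT cells and to 2 and 4 in R255K cells, or 4.31% (0.105 to 26.1) and 3.58% (0.421 to 13.7) at 4 h. Foxa2 had 0 counts in WT at both times, with upper limits of 41.9% at 4 h and 45.4% at 8 h, and 2 and 1 counts in R255K, or 2.71% (0.321 to 10.2) and 1.34% (0.0334 to 7.75). A difference between the genotypes in the decay of these 3 factors was not detectable at this depth.

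Efnb2 and Pax6 had the most counts of the members at 0 h, and 16 and 18 were left in WT at 8 h. Of Efnb2, 8.04% (5.57 to 11.3) remained in WT at 4 h and 18.5% (16.0 to 21.4) in R255K, and at 8 h 3.88% (2.20 to 6.35) and 14.5% (12.3 to 16.9). Of Pax6, 19.1% (13.3 to 26.7) and 36.7% (28.4 to 47.3) remained at 4 h, and 9.31% (5.43 to 15.0) and 23.0% (16.8 to 31.0) at 8 h. For both genes the intervals of WT and R255K were apart at both times.

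Half-lives were taken from the mean of the rates from 0 to 4 h and from 0 to 8 h, for genes with a mean of at least 1 FPKM at 0 h. Of the 3 members in that set, 2 had a longer half-life in R255K and none a shorter one, where 47.4% of 11847 genes were longer and 22.1% shorter. With TMM factors in place of summed counts the same 2 members were longer, and the split over all genes was 36.6% longer and 34.0% shorter. Efnb2 went from 1.34 h (1.21 to 1.49) to 2.09 h (1.96 to 2.24). Pax6 went from 1.95 h (1.69 to 2.30) to 3.19 h (2.70 to 3.91). The rates depended on the window. For Efnb2 they were 0.630 per h from 0 to 4 h and 0.406 from 0 to 8 h in WT, and 0.421 and 0.242 in R255K. For Pax6 they were 0.414 and 0.297 in WT, and 0.250 and 0.184 in R255K. The half-life intervals cover counting error only and not this dependence. The ratios of the half-lives were 1.56 and 1.64, where the median over the 5504 genes that decayed in both genotypes was 1.98. From 4 to 8 h alone neither gene was called, where 38.2% of genes were longer and 11.2% shorter, and relative to Gapdh, whose counts moved unevenly between the libraries, both were shorter in R255K, as were 86.9% of all genes (1.89% longer).

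Gata6 had a half-life of 1.20 h (0.935 to 1.67) in WT, where raising its 4 h count to the floor of 3 counts lengthened the estimate. In R255K it was 1.45 h (1.15 to 1.98). The 5 other members lay under 1 FPKM. Pdgfra went from 2.58 h (2.06 to 3.46) to 4.10 h (2.91 to 6.94), an interval of the difference in rate that just left out 0 (0.00238 to 0.197 per h) and that included it with TMM or DESeq2 factors. Eomes had a half-life of 2.39 h (1.70 to 4.02) in WT, where raising its 8 h count to the same floor lengthened the estimate. In R255K it was 4.10 h (3.08 to 6.15). These intervals overlapped, and Eomes was not called.

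T was the member whose estimates in the R255K libraries lay above the 0 h level. At 4 h 125% (84.6 to 187) of the 0 h level remained and at 8 h 113% (75.4 to 170), with 45, 67 and 61 counts. Over all genes past 1 FPKM the upper quartile in R255K was 116% at 4 h and 120% at 8 h. In WT 74.0% (24.3 to 209) and 57.4% (15.6 to 179) of T remained, with 11, 7 and 5 counts. These T intervals all included the 0 h level, so decay was neither shown nor excluded in either genotype. The interval of the difference in rate included 0 (−0.0594 to 0.275 per h).

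Peaks and decay can be set side by side for the members, though 8 genes are a description and not a relation. Efnb2 kept its peaks at the end of the coding sequence and in exon 2 and had a reduced one at the start codon. Pax6 had no R255K peak. Both had the longer half-life. Pdgfra, Sox17 and Eomes kept their peaks, and Gata6, Foxa2 and T did not. By summed counts the Pdgfra interval also just left out 0, on the side of a longer half-life. With TMM or DESeq2 factors, none of these 6 was called, while Efnb2 and Pax6 were. All of these 6 but Gata6 lay under 1 FPKM, and Gata6 had a WT count at the floor. The half-life ratios of Efnb2 and Pax6, 1.56 and 1.64, were below the median of 1.98 over genes that decayed in both genotypes.

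Other genes of the same pathways were taken from lists of 63 distinct genes, of which 47 had at least 10 counts at 0 h. Of these 28 were higher in R255K, 9 lower and 10 not called, against the 38.8% and 30.1% of all genes. The lists were chosen with earlier results of these data known.

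The other endoderm markers split like the endoderm members. Of 13 genes, 10 could be compared, and 2 were higher, 2 lower and 6 not called. Gata4 and Sox7, factors that act with GATA6 and SOX17 in primitive endoderm, were both lower, at 0.518 (0.407 to 0.655) and 0.206 (0.142 to 0.291) of WT. Dab2, another primitive endoderm marker of the list, was higher (1.58, 1.30 to 1.92) and was named after its value was seen. Of 11 primitive and extraembryonic endoderm markers compared, Gata4, Sox7 and Dab2 among them, 7 were higher and 3 lower. Hhex, a homeobox factor of anterior endoderm, was at 0.997 (0.780 to 1.27). The median log2 ratio of the list was −0.08.

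Of the 14 other mesoderm and primitive streak markers, 11 could be compared, and 10 were higher and none lower. Of these 10, 5 had under 10 counts in WT and were compared only because of their R255K counts. Neither the tally nor the list's median thus supports a direction. The median log2 ratio was 1.40 over the 10 with counts in both libraries, and 1.57 with Foxf1 (0 and 17 counts) at the floor. Wnt3, a signal that starts the primitive streak, had 4 and 85 counts and was 23.7-fold higher (8.92 to 88.9). Snai1, a factor of epithelial-mesenchymal transition, was 4.04-fold higher (2.79 to 5.98). Mesp2 was 1.82-fold higher (1.28 to 2.60) and Evx1 1.75-fold (1.13 to 2.76). Fgf8 had 7 and 30 counts, a ratio of 4.78 (2.06 to 12.9). Hand1, which is also a trophoblast gene, had 3 and 57 counts, a ratio of 21.2 (6.89 to 106). Wnt3, Fgf8 and Hand1 had under 10 counts in WT and passed through the R255K library alone, so their ratios are no support for a direction.

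Of the 15 other ectoderm markers, 10 could be compared, with 7 higher and 2 lower and a median log2 ratio of 1.43. Otx2, a factor of anterior neural and formative cells, was 5.10-fold higher (4.08 to 6.44). Nes, an intermediate filament of neural progenitors, was 3.47-fold higher (2.96 to 4.08) and Sox3 3.28-fold (2.72 to 3.97). The neural factor Sox1 went the other way, with 1130 and 133 counts and a ratio of 0.131 (0.109 to 0.157), as did Gbx2 at 0.498 (0.461 to 0.538). Tubb3, the neuronal tubulin, was 1.34-fold higher (1.28 to 1.40).

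Of the 8 other B-class ephrins and Eph receptors, 3 were higher, 3 lower and 2 not called. The receptors Ephb4 (0.487, 0.443 to 0.535), Ephb3 (0.554, 0.490 to 0.626) and Epha4 (0.462, 0.412 to 0.518) were lower, while Ephb6 was higher (1.63, 1.16 to 2.29) and Ephb2 (1.00, 0.869 to 1.15) and Ephb1 (3.06, 0.908 to 13.2) were not called. The related ligand Efnb1 was 2.02-fold higher (1.58 to 2.60) and Efnb3 2.67-fold (1.89 to 3.82). Ephb1, Ephb2, Ephb6 and Efnb3 lie outside the rule for named genes and were added after their values were seen.

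Of the ligands and the sister receptor of Pdgfra, 4 of 5 could be compared, and 3 were higher and 1 lower. Pdgfa, a ligand of PDGFRA with 1288 and 663 counts, was lower (0.574, 0.521 to 0.630), as was Pdgfra itself. Pdgfc was 1.60-fold (1.40 to 1.83) and Pdgfb 3.65-fold (2.50 to 5.46) higher, and the sister receptor Pdgfrb, also added after its value was seen, 2.23-fold (1.53 to 3.28). Among the 14 closest relatives of the members, 10 could be compared, and 6 were higher, 3 lower and 1 not called. Sox18, the closest relative of Sox17 with Sox7, was 8.02-fold higher (5.26 to 12.7) where Sox7 was lower. The T-box gene Tbx21 was 4.09-fold higher (2.12 to 8.50), and the receptor Kit was at 0.819 (0.756 to 0.887).

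**Figure D4:**
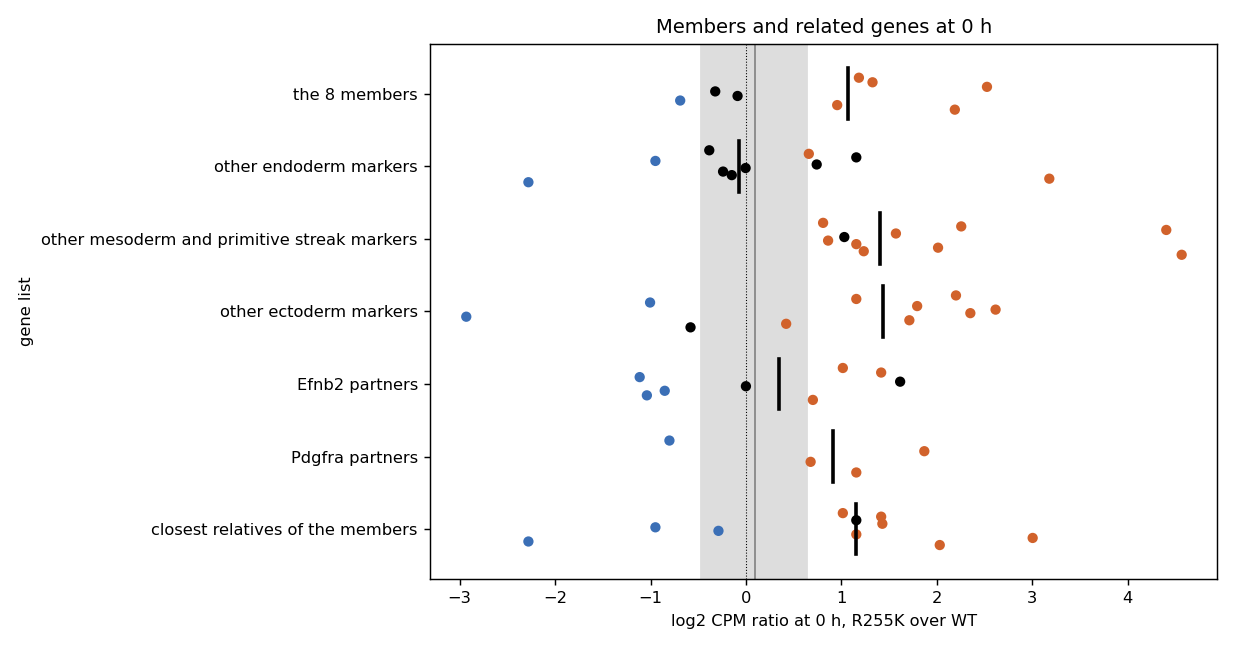
Log2 CPM ratio of R255K over WT at 0 h for the 8 members and for the genes of each list with at least 10 counts, in orange where higher, blue where lower and black where not called, with the median of each list as a black bar and the median and quartiles of all genes as a grey line and band. Over genes with counts in both libraries, the mesoderm and ectoderm lists have medians of 1.40 and 1.43, above the band, and the endoderm list one of −0.08. In the mesoderm list 6 of the 11 compared genes had under 10 counts in WT, so its median supports no direction.

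Markers of other cell types differed between the same libraries, where 38.8% of all genes were higher and 30.1% lower at 0 h. Of the 12 markers of primitive and extraembryonic endoderm, 11 could be compared at 0 h, and 7 were higher, 3 lower and 1 not called, with a summed level between 683 and 886 CPM in WT and between 974 and 1284 CPM in R255K over the 3 times. Of the 8 fibroblast markers 5 could be compared at 0 h and all 5 were higher, 3 of them compared only because of their R255K counts, with sums of 7.54 to 8.04 CPM and 32.2 to 36.4 CPM. Col3a1, Postn and Lum were at 0 in the WT 0 h library, and Postn and Lum in the R255K one. Of the 7 trophoblast markers 4 reached 10 counts, each through the R255K library alone, which fixed their direction. The list had sums of at most 0.344 CPM in WT and of 5.74 to 10.2 CPM in R255K. Elf5, Krt7, Tpbpa and Psg17 were at 0 in the WT 0 h library, and Tpbpa and Psg17 in the R255K one. The same held for 4 of the 6 markers of 2-cell-like cells, whose sum was at most 0.334 CPM in WT and between 7.42 and 12.2 CPM in R255K, where Zfp352 was at 0 at 0 h. In the WT 0 h library 5 of these 6 were at 0. Pluripotency markers were lower in 9 of 12 cases at 0 h, and higher in 1. At 4 h 7 were lower and 5 higher, and at 8 h 5 were lower and 5 higher. Over all genes 20.9% were lower and 48.9% higher at 4 h, and 19.1% and 56.0% at 8 h. The part of these differences in the values of the members was not tested.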

How the data were processed

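The deposited tables hold counts per gene for the 6 actinomycin D libraries, which the authors left without normalization, and a gene length (a column of another kind). The deposited peak lists give per peak a fold enrichment (a ratio), a −log10 p, which was not used, a −log10 q, a score that was not used, and the summit offset. Per the labels and methods, the authors removed rRNA reads with Bowtie2 2.2.6, aligned to mm10 with HISAT2, kept unique reads with Picard 2.16.0 and SAMtools 0.1.09, and called peaks of pull-down over input with MACS2. The counter, its annotation and strand setting, and how replicate libraries were merged for peak calling, are not given in the sources used here.

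CPM and FPKM used summed counts. Genes with under 10 counts over both libraries compared were left out of ratios. Intervals were Poisson, Clopper-Pearson or, for decay rates, from the variance 1/count. For rates, later counts below 3 were raised to 3, and a rate bounded that way was not called the slower one, a rule set after the data were seen. Peaks were compared with bedtools 2.31.1 (at least 1 bp) on the exons of the count tables. edgeR and DESeq2 gave scaling factors only. No test was made, since there is 1 library per group. The calls and intervals were run on simulated Poisson counts, which hold no spread between replicates. That checks the counting rule and not the calls made in these data. 10 genes overlap a member, with at most 7 counts in any library.

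Named genes were the members, Mettl14 and, per list, the 3 of highest level and up to 3 with an interval beyond 2-fold, of which 1 is not reported here. Genes most like a member were to be named for members with at least 20 counts in all 6 libraries, and 0 members had them. Members and lists were chosen with earlier results of these data known. The alternatives tried were other scalings, a GC correction, other intervals, filters and times, and stricter peaks and overlaps. The split of peaks at the median −log10 q and the comparison with genes of 20 to 200 counts were chosen after seeing the data.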

Additional observations from a re-analysis of the deposited data

Results flagged for a closer look

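T at 8 h stood at 57.4% of its 0 h level in WT and at 113% in R255K, below 100% in the one and above it in the other. The difference was not tested, with 1 library per genotype and time. The WT value rests on 11 and 5 counts and its interval runs from 15.6% to 179%. The R255K interval runs from 75.4% to 170%, so both include 100%, and no movement is shown in either genotype.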

How the results depend on the processing

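The alternatives moved the count of members or peaks called by over 1.5 times in 10 cases, all given here. Relative to Gapdh, whose own counts were 995, 242 and 2357 in WT and 331, 787 and 1875 in R255K, 8 members were higher at 0 h and 0 lower, and 0 had a longer and 2 a shorter half-life (1.89% longer and 86.9% shorter over all genes). Over all genes that scaling gave 84.9% higher and 2.18% lower at 0 h and moved the median log2 ratio to 1.53. The count of lower members was 0 at 4 h, 0 at 8 h, 0 for intervals beyond a ratio of 1.5 (11.9% of all genes lower), and 2 with the GC trend removed (31.5%). From 4 to 8 h alone, 0 members had a longer half-life (38.2% of all genes longer, 11.2% shorter). With a −log10 q of at least 5 in both lists, 3 of 9 WT peaks had no R255K overlap (47.5% of 12764 exonic peaks). Among the called values of single members, these changed sign. The log2 ratio of Pdgfra was 0.74 relative to Gapdh, 0.10 at 4 h and 0.024 at 8 h. The difference in decay rate (WT minus R255K) relative to Gapdh was −0.173 per h for Pdgfra, −0.134 for Pax6 and −0.0860 for Efnb2, and from 4 to 8 h −0.0138 for Pdgfra. Of the values not called, relative to Gapdh the log2 ratios of Gata6 (1.11) and Pax6 (1.34) and the rate differences of Gata6 (−0.173), T (−0.165) and Eomes (−0.152) also changed sign. So did the log2 ratios of Gata6 at 4 h (2.27) and of Pax6 at 4 h (0.86) and 8 h (1.22), and from 4 to 8 h the rate differences of Gata6 (−0.125) and Sox17 (0.0487). The cause was not tested. No paired analysis was possible because the peak lists carry no value per replicate and the time course has 1 library per group. Depth limits Gata6, Sox17 and Foxa2 after 0 h, and T in WT at every time. No library could be left out, since each group of the time course has 1.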
